A study of Mus musculus with 12 samples.

Results

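The microglia genes are 9 genes by which microglia, the resident immune cells of the brain, are commonly recognised in whole tissue. They are Cx3cr1, P2ry12, Csf1r, Trem2, Tmem119, Aif1, C1qa, C1qb and C1qc, taken by name out of 35580 genes with a listed transcript. Their transcripts were read from RNA-Seq of hippocampal tissue of 12 male mice of the C57BL/6 strain (C57BL/6J in the methods), aged 70 postnatal days, with 3 mice in each of 4 groups. Control mice came from dams offered water and were left with the dam. Ethanol mice came from dams that drank 10% ethanol in water by choice during gestation. The methods describe ethanol as also on offer before mating and for part of the nursing period. Stress mice were taken from dam and littermates for 3 h each day between postnatal days 2 and 14, and ethanol + stress mice had both exposures. All mice were of the same inbred background, the dose of ethanol depended on what each dam chose to drink, and the pups kept apart were picked within litters, so that mice of different groups may share a dam. The labels do not tie mice to litters, and p-values therefore measure the spread between these mice alone.

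Microglia derive from yolk sac progenitors and survey the tissue with moving processes. In the hippocampus they take up debris and weak synapses, the latter partly through C1q, the molecule that starts the classical complement pathway when it binds to a surface. Receptors for signals from neurons and damaged cells (CX3CR1, P2RY12, CSF1R, TREM2) keep them alive, guide their processes and set how active they are. In RNA from whole tissue, fewer microglia and less RNA per microglial cell cannot be told apart.

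Values are TPM (scaled transcript abundances), a level per unit of transcript length, as estimated for each transcript by the authors and, judging from the unequal sums, scaled between libraries, and summed here over the isoforms of a gene. The scaled values sum to between 889222 and 1173650 per library. Ethanol replicate 2 and ethanol + stress replicates 2 and 3 have the highest sums, at 1173650, 1126490 and 1130571, against 1024269 at most in the other libraries. Between 12070000 and 14970000 read pairs per library were recovered from the step between low values, and these set how finely a level is known.

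All 9 genes were detected in every library and passed the filter on low values, which 18434 genes passed in all. Averaged over the 12 mice, C1qa stood highest at 87.8 TPM, followed by C1qb at 69.8, P2ry12 at 66.9, C1qc at 60.6, Csf1r at 44.4, Cx3cr1 at 29.6, Tmem119 at 18, Aif1 at 16.2 and Trem2 at 10.1 TPM. The ranges over mice of Csf1r (40.2 to 51.5 TPM) and Cx3cr1 (25.1 to 34.1) did not overlap, nor did those of Cx3cr1 and Tmem119 (13.8 to 22.8). All other neighbours in this order overlapped, as did Aif1 (10.4 to 22.7) and Trem2 (7.50 to 14.2). Precision follows both level and transcript length. Csf1r was carried by 1181 to 1559 read pairs per library and Cx3cr1 by 727 to 993, whereas Aif1 rested on 54 to 89 and Trem2 on 56 to 113.

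Of 31 annotated isoforms of the 9 genes, 27 are listed and 23 passed the filter. C1qa and C1qb each have a single isoform. The C1q genes lie side by side on the minus strand of chromosome 4, C1qb at chr4:136880129-136886187, C1qc at chr4:136889804-136893065 and C1qa at chr4:136895917-136898803 (GRCm38, GENCODE vM21). Together they span 18675 bp, with gaps of 3616 bp and 2851 bp between neighbours.

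Promoter sequences were available for 6 of the 9 genes (RefSeq, GRCm38.p6). Printed here are the 250 bases before the RefSeq transcription start of C1qb and Trem2, the genes with a sequence whose levels had the highest Pearson's r with each other over the 12 mice (0.88), and whose windows hold no exon of their own gene. Capitals mark GAGGAA or its reverse complement TTCCTC, the core letters bound by PU.1, the transcription factor of the myeloid lineage. On their own strands the windows are chr4:136886201-136886450 (minus) for C1qb and chr17:48346151-48346400 (plus) for Trem2.
C1qb: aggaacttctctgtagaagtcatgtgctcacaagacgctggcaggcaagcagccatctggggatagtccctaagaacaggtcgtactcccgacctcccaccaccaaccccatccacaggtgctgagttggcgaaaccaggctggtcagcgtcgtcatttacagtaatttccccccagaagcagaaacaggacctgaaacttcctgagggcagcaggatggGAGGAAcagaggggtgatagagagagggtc
Trem2: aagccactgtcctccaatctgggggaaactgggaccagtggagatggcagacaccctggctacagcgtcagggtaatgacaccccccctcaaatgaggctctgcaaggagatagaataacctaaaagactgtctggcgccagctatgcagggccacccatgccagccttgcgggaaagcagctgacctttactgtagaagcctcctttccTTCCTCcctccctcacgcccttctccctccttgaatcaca
The letters are found in 4 of the 6 windows (Aif1, C1qb, C1qc and Trem2) and in 23.3% of 32851 mouse promoter windows of the same length. The longer form GAGGAAGT, which contains the shorter, is found in C1qc and in 2.44% of all windows. TATAAA occurs in none of the 6 and in 12.4% of all windows. For C1qc, Cx3cr1 and Aif1 the RefSeq start lies inside the gene as GENCODE vM21 annotates it, and 151, 250 and 16 of the 250 bases fall in exons of that gene, so that these windows are not purely upstream. These are matches of letters and carry no measurement of binding.

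Among the receptors, Cx3cr1 and Csf1r were the steadiest from mouse to mouse. Cx3cr1 encodes the receptor for fractalkine, the neuronal chemokine made from Cx3cl1, and lies at chr9:119901616-120069879 on the minus strand. It was at 31.3, 31.0 and 27.2 TPM in control mice, 29.1, 28.0 and 25.1 in ethanol mice, 28.6, 30.6 and 31.5 in stress mice, and 30.3, 28.9 and 34.1 in ethanol + stress mice. The 4 groups overlapped. Group means were 29.8 ± 2.26, 27.4 ± 2.07, 30.3 ± 1.5 and 31.1 ± 2.71 TPM (SD, n = 3 each). On the scale of log2(TPM + 0.5) used for all tests, ethanol mice differed from control by -0.12 (SE 0.0978), stress mice by 0.02 and ethanol + stress mice by 0.06, with the same SE and intervals that reach from -0.34 to 0.27. The direction was not stable, since the value in ethanol mice was 0.09 with the highest isoform only, and that in ethanol + stress mice -0.08 with libraries rescaled to the same sum.

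Csf1r, the receptor for the survival factors CSF1 and IL-34, lies on the plus strand of chromosome 18 from 61100598 to 61132149. Its levels were 44.5, 48.7 and 45.8 TPM in control mice, 43.9, 41.4 and 40.2 in ethanol mice, 41.8, 42.7 and 42.4 in stress mice, and 44.3, 45 and 51.5 in ethanol + stress mice. Every ethanol and every stress mouse lay below the lowest control mouse, while ethanol + stress mice spanned the control range. With libraries rescaled to the same sum, both the ethanol and the stress mice overlapped the control mice. The differences were small, at -0.14 (SE 0.0809, interval -0.32 to 0.03, adjusted p = 0.997 in limma) in ethanol mice, -0.13 (interval -0.30 to 0.05, adjusted p = 1) in stress mice and 0.02 (adjusted p = 0.965) with both exposures. Csf1r alone of the 9 genes lay wholly below control in ethanol mice, where 3.19% of all genes did, and again alone in stress mice, where 3.39% of all genes did.

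P2ry12 encodes the ADP receptor that draws microglial processes towards injured cells and synapses (chr3:59216272-59262871, minus strand). Its levels were 65.6, 72.7 and 58.2 TPM in control mice, 71.0, 81.6 and 57.5 in ethanol mice, 68.9, 53.4 and 73.1 in stress mice, and 53.6, 62.1 and 85.0 in ethanol + stress mice. The spread within a group exceeded any difference between groups. The log2 differences were 0.09, -0.02 and 0.01 in ethanol, stress and ethanol + stress mice, each with an SE of 0.183, and the interval of the last reached from -0.39 to 0.41.

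Trem2, a receptor for lipids and apolipoproteins that signals through the adaptor TYROBP, lies at chr17:48346401-48354147 on the plus strand. It was at 10.7, 8.65 and 8.34 TPM in control mice, 8.54, 13 and 8.57 in ethanol mice, 10.3, 7.50 and 9.87 in stress mice, and 9.27, 12.6 and 14.2 in ethanol + stress mice. The highest values belong to ethanol replicate 2 and ethanol + stress replicates 2 and 3, the libraries with the highest sums. The difference of ethanol + stress from control mice was 0.35 (SE 0.205, interval -0.09 to 0.80, adjusted p = 0.791 in limma), and those of ethanol and stress mice were 0.10 and -0.01. The first of these was 0.22 with libraries rescaled to the same sum, 0.23 without ethanol + stress replicate 3 and 0.52 without ethanol + stress replicate 1.

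Tmem119, a membrane protein that distinguishes microglia from macrophages entering from the blood, lies at chr5:113793729-113800516 on the minus strand. It was at 19.5, 15.6 and 18 TPM in control mice, 17.6, 15.8 and 13.8 in ethanol mice, 17.3, 16.4 and 16.6 in stress mice, and 20.1, 22.8 and 22.7 in ethanol + stress mice. The 3 ethanol + stress mice stood above all other 9 mice, by a small margin over control replicate 1 (20.1 against 19.5 TPM). With the main isoform Tmem119-201 alone, ethanol + stress replicate 1 was at 18.5 TPM, below control replicate 1 at 18.7 TPM. Wholly above control in ethanol + stress mice lay 5.63% of all genes, and the share above all other groups was not counted. Group means were 17.7 ± 1.97, 15.7 ± 1.95, 16.8 ± 0.506 and 21.9 ± 1.55 TPM (SD, n = 3 each). Each exposure alone was accompanied by a lower mean (-0.17 in ethanol and -0.07 in stress mice, with intervals of -0.42 to 0.09 and -0.33 to 0.18), and both together by a higher one (0.30, SE 0.117, interval 0.05 to 0.56, adjusted p = 0.791 in limma).

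Aif1 encodes IBA1, the calcium-binding and actin-bundling protein by which microglia are usually stained (chr17:35170991-35176068, minus strand). Its levels were 16.3, 15.1 and 15.1 TPM in control mice, 12.3, 22.7 and 10.4 in ethanol mice, 18.2, 12.1 and 19.5 in stress mice, and 12.9, 17.3 and 22.3 in ethanol + stress mice. Control mice lay close together and the treated mice on both sides of them. Its differences from control had the widest intervals of the 9 genes, for example 0.14 (-0.47 to 0.74) in ethanol + stress mice. That value depended on the isoforms counted, at 0.53 with protein-coding isoforms only (adjusted p = 0.759 in limma) and 1.37 with the highest isoform only (adjusted p = 0.809), and on the mice, from -0.05 without ethanol + stress replicate 3 to 0.34 without ethanol + stress replicate 1. Neither isoform choice led to a call, and the adjusted p ran from 0.555 to 1 over all alternatives.

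The genes of C1q, which encode its A, B and C chains, were the members furthest above control in ethanol + stress mice, together with Trem2. C1qa was at 88.2, 76.2 and 77.9 TPM in control mice, 87.6, 94.4 and 60.6 in ethanol mice, 85.3, 80.2 and 84.8 in stress mice, and 82.2, 121.5 and 114.8 in ethanol + stress mice. C1qb was at 64.4, 57.0 and 58.3 TPM in control mice, 71.1, 88.1 and 56.6 in ethanol mice, 67.4, 59.6 and 64.9 in stress mice, and 66.1, 94.5 and 89.2 in ethanol + stress mice. C1qc was at 66.3, 54.6 and 50.3 TPM in control mice, 60.4, 62.6 and 50.3 in ethanol mice, 56.6, 53.8 and 55.1 in stress mice, and 59.1, 77.6 and 80.5 in ethanol + stress mice. In each case ethanol + stress replicates 2 and 3 were high and replicate 1 lay near the control mice. C1qb did not overlap between ethanol + stress and control mice, and C1qa and C1qc did.

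**Figure D1:**
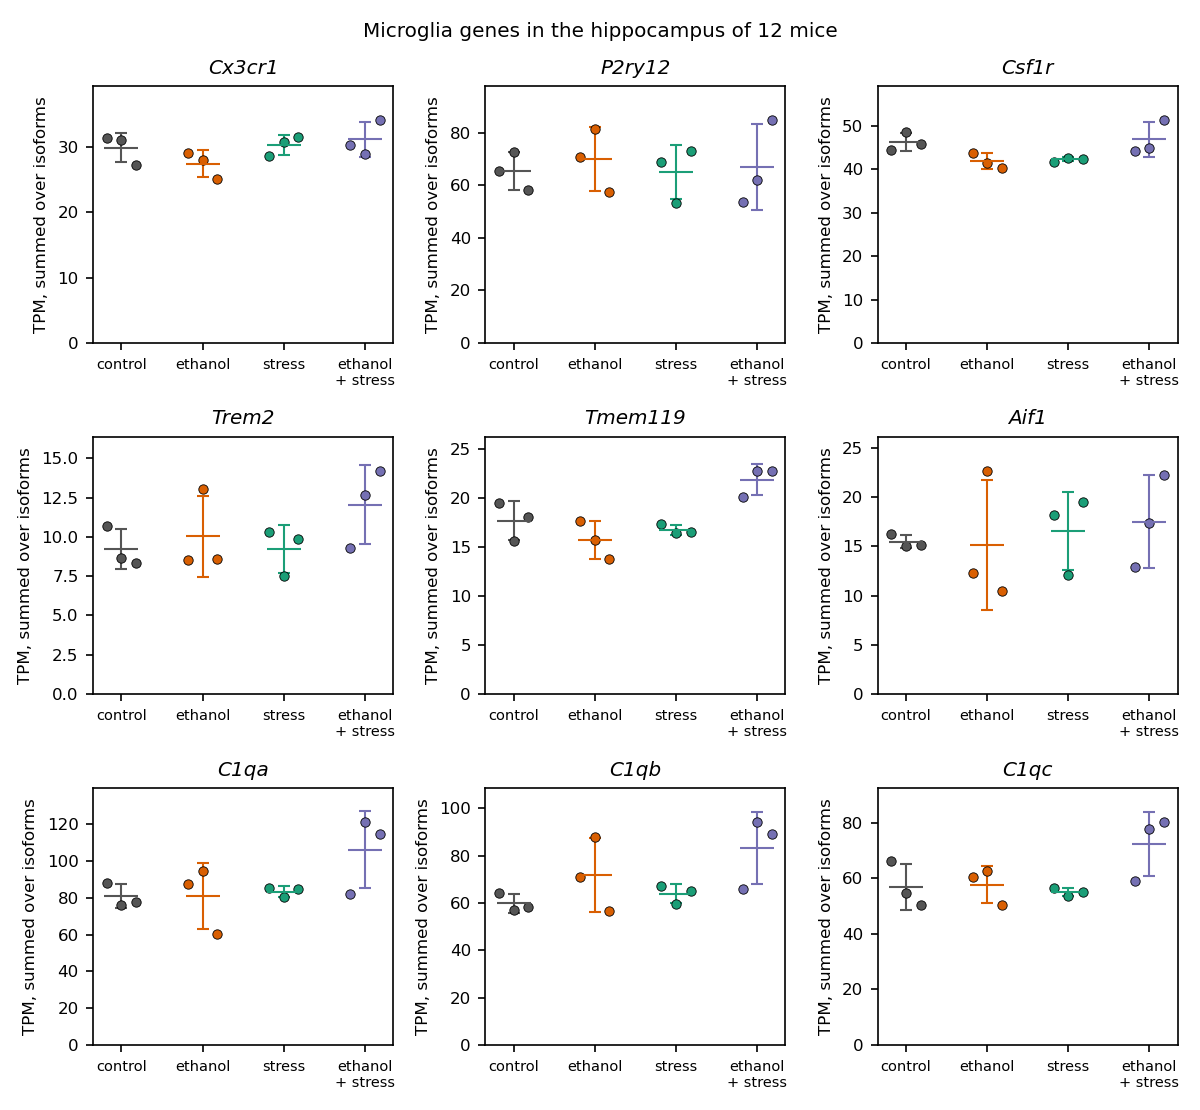
Level of each microglia gene (TPM summed over isoforms, linear axis from 0) in each of the 12 mice by group, with points for mice and bars for the mean ± SD of 3 mice. Tmem119 in ethanol + stress mice (20.1 to 22.8 TPM) stands above the other groups (19.5 TPM at most). The C1q genes show 2 high mice and 1 mouse near control in the ethanol + stress group.

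In ethanol mice, none of the 9 genes passed the threshold used throughout, an unadjusted limma p under 0.01, which 0.678% of the 18434 genes tested passed. None had a p under 0.05 either, against 3.63% of all genes, and the smallest was that of Csf1r. The differences ran from -0.17 (Tmem119) to 0.24 (C1qb), 4 of 9 lay above 0, and their median was -0.02, beside 0.02 over all genes. Adjusted p values were 0.997 or more. Single mice moved these estimates without a call, C1qb to 0.08 without ethanol replicate 2 and to 0.40 without ethanol replicate 3 (adjusted p = 0.692 in limma, 0.692 to 1 over all alternatives, with an unadjusted p under 0.05), and Tmem119 to between -0.25 and -0.08. The intervals reached 0.18 to either side of the estimate for Csf1r and 0.60 for Aif1, which is the size of difference that 3 mice against 3 leave undecided.

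In stress mice the count was again 0 of 9, where 0.51% of all genes passed, and 0 of 9 at a p under 0.05, where 2.4% did. The differences ran from -0.13 (Csf1r) to 0.09 (C1qb), 4 of 9 lay above 0, and the median was -0.01 beside 0.00 over all genes. All adjusted p values rounded to 1.

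In ethanol + stress mice 0 of 9 genes passed at 0.01, where 0.971% of all genes did, and 4 of 9 had a p under 0.05 on the side of higher levels, where 3.25% of all genes lie. These 4 are C1qb at 0.46 (SE 0.160, interval 0.11 to 0.81), Tmem119 at 0.30, C1qc at 0.34 (SE 0.136, interval 0.04 to 0.63) and C1qa at 0.37 (SE 0.171, interval 0.00 to 0.75), and in limma's adjustment over all genes each had an adjusted p of 0.791. In folds of the fitted values, these are 1.37 for C1qb, 1.23 for Tmem119, 1.26 for C1qc and 1.3 for C1qa. The 4 genes are not independent of each other. Over the 12 mice the C1q genes had r of 0.87 to 0.91 with each other and of 0.63 to 0.83 with Tmem119. The members were also chosen with earlier results of these data known, so that 4 of 9 against 3.25% is a description only. Tmem119 and C1qb, 2 of 9 genes, lay wholly above control, as did 5.63% of all genes. All 9 estimates were above 0, with a median of 0.30 beside 0.02 over all genes, but Cx3cr1, P2ry12 and Csf1r lay below 0 once the libraries were rescaled to the same sum. That rescaling moved the median of all genes in this comparison from 0.02 to -0.09. It took C1qb to 0.32 and past the threshold, C1qa to 0.24, C1qc to 0.20 and Tmem119 to 0.17, and left C1qa and C1qb, 2 of the 4, with a p under 0.05 (adjusted p = 0.781 for each, 0.235 to 1 over all alternatives).

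The 2 high mice weigh on these values. Without ethanol + stress replicate 1, C1qa, C1qb and C1qc all passed the threshold (0.55, 0.61 and 0.48, adjusted p = 0.235 each in limma), and without control replicate 1 C1qc did (0.45, adjusted p = 0.827). The share of all genes called in these fits is not given here, and the 0.971% of the main fit does not stand for it. Over all alternatives run, the adjusted p of the C1q genes in this comparison ranged from 0.235 to 1. Without ethanol + stress replicate 2 the estimates were 0.27 for C1qa, 0.36 for C1qb and 0.28 for C1qc, with none past either threshold. The count of 4 genes with a p under 0.05 went to 0 without ethanol + stress replicate 2 and also without ethanol + stress replicate 3, to 1 (C1qb) without control replicate 2, to 2 (Tmem119 and C1qb) without control replicate 3, and to 5, with Trem2, without ethanol + stress replicate 1. The count was 3, without C1qa, with eBayes without trend, median-of-ratios size factors, no filter, a replicate block or the highest isoform only. It was also 3 with only the groups compared, where C1qc was lost, and 5, with Aif1, with protein-coding isoforms only. The 3 treatments were compared with the same 3 control mice, so their estimates are not independent of each other.

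**Figure D2:**
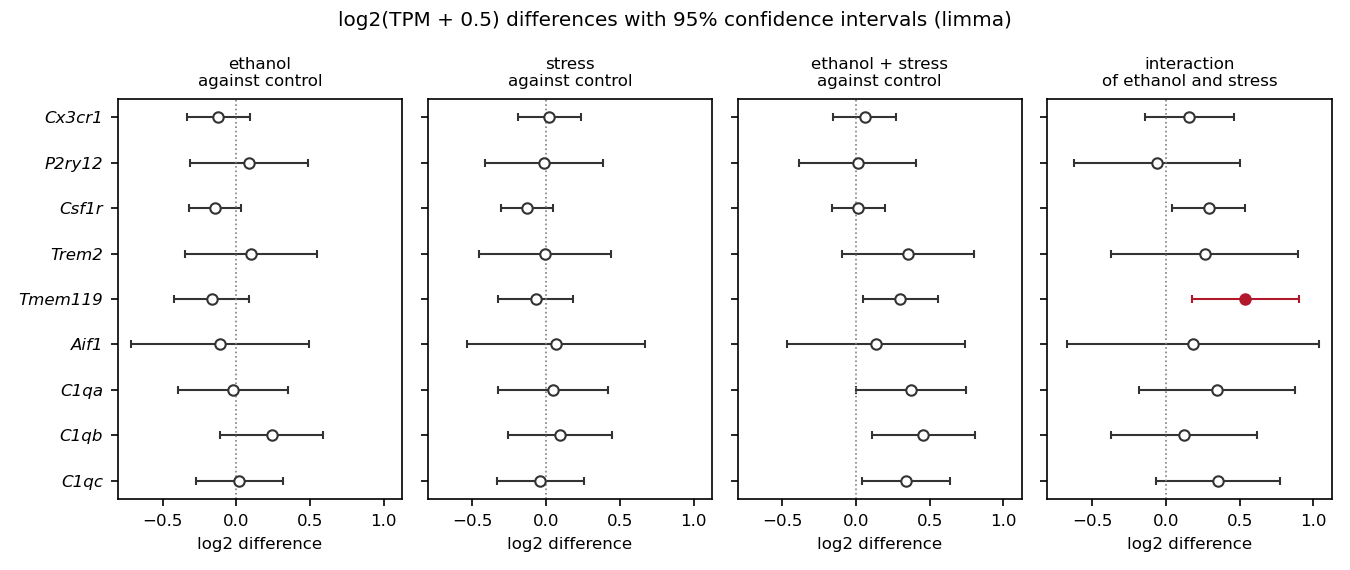
Difference of each microglia gene in log2(TPM + 0.5), with points for limma estimates and bars for 95% confidence intervals, in each comparison with control and in the interaction. The filled red point marks Tmem119 in the interaction (0.54), the one value with an unadjusted p under 0.01, and in ethanol + stress against control all 9 points lie right of 0.

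The interaction asks whether stress differed in its association with a gene between ethanol mice and mice without ethanol, and was a contrast of the same model. Tmem119 was the 1 gene of 9 called, with 0.54 (SE 0.165, interval 0.18 to 0.90, adjusted p = 1 in limma), where 0.461% of all genes were called and 0.19% with a value above 0. Csf1r had 0.29 (SE 0.114, interval 0.04 to 0.54), so that 2 of 9 had a p under 0.05 above 0, against 1.18% of all genes. Tmem119 alone remained at that level without control replicate 2, ethanol replicate 3, stress replicate 1 or ethanol + stress replicate 3, and without ethanol + stress replicate 1 there were 4 genes, C1qa and C1qc among them. Csf1r also lost that level with libraries rescaled to the same sum (0.25, where C1qc gained it), with eBayes without trend and with the highest isoform only, and with the length trend removed there were again 4 genes. Estimates were above 0 for 8 of 9 genes, with a median of 0.26 beside -0.01 over all genes, and P2ry12 was the exception at -0.06.

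The call of Tmem119 is close to the threshold. Leaving out single mice kept the estimate between 0.45 and 0.63 and the call was lost in 9 of 12 cases. It was kept without control replicate 2, ethanol replicate 1 or ethanol + stress replicate 1. With libraries rescaled to the same sum it was 0.50, and with the main isoform Tmem119-201 alone 0.42, both uncalled. The adjusted p ranged from 0.912 to 1 over 23 alternatives. The short isoform Tmem119-202, of 336 bases, was listed at 0.80 and 0.87 TPM in control replicates 1 and 3, at 1.59, 0.78 and 0.96 TPM in ethanol + stress mice and at 0 in the other 7 libraries. At that length its highest level equals 1.9 read pairs, under the 3 read pairs below which a level is within counting error of 0.

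No isoform of any of the 9 genes passed the threshold. Of 23 tested isoforms 0 passed in ethanol mice, where 1.26% of 59852 transcripts did, 0 in stress mice (0.914% of transcripts), 0 in ethanol + stress mice (1.21%) and 0 in the interaction (0.854%). At a p under 0.05 there was 1 in ethanol mice (5.43% of transcripts), 0 in stress mice (3.88%), 4 in ethanol + stress mice (5.57%) and 2 in the interaction (4.06%). The 4 are C1qb-201, C1qc-201, C1qc-202 and Tmem119-201. C1qa-201, the single isoform of C1qa, is not among them, with 0.37 and an interval of -0.01 to 0.76 in the fit over transcripts. C1qc-202 is a minor processed transcript at 0.74 TPM at most.

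Cx3cr1 is read from isoforms that share most of their sequence. Cx3cr1-201 (3753 bases) took 66.8% of the gene's mean and Cx3cr1-202 (3156 bases) 32.4%, and 99.6% of the bases of the latter lie in the former as well. Cx3cr1-202 was at 12.6, 11.9 and 8.64 TPM in control mice, 9.70, 6.97 and 5.22 in ethanol mice, 7.66, 11.6 and 9.53 in stress mice, and 10.0, 9.98 and 11.4 in ethanol + stress mice. Ethanol replicates 2 and 3 were the lowest of the 12 mice, and ethanol + stress mice lay within the range of the control mice. Its difference in ethanol mice was -0.59 (SE 0.228, interval -1.09 to -0.08, adjusted p = 0.866 in limma) and its interaction 0.73 (SE 0.323, interval 0.02 to 1.44, adjusted p = 1). Cx3cr1-201 stayed between 18.4 and 22.5 TPM in all 12 mice.

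P2ry12 was split mainly between P2ry12-202 (50.6% of the gene's mean) and the 619-base P2ry12-205 (37.3%). P2ry12-204 shares 98.0% of the bases of P2ry12-202 and ranged from 0 in control replicates 1 and 2 and stress replicate 2 to 10.2 TPM in control replicate 3. P2ry12-203 averaged 3.02 and P2ry12-201 1.39 TPM. Csf1r-201 carried 90.1% of Csf1r and Csf1r-202 9.93%. The share of Csf1r-202 was highest in ethanol replicate 3 and ethanol + stress replicates 2 and 3, at 14.9%, 14.8% and 14.8%, and between 5.42% and 10.6% in the other mice.

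Trem2-201 held 79.9% and Trem2-202 16.9% of Trem2, the latter between 2.68% in stress replicate 1 and 34.7% in ethanol + stress replicate 1. They share 92.0% of the bases of Trem2-201, and Trem2-202 rested on 2.1 to 24.4 read pairs. Trem2-203, a retained intron form, reached 0.51 TPM at most.

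For Aif1, the isoforms Aif1-201 and Aif1-203 were estimated high in different mice. Aif1-201 was at 5.53, 3.88 and under 0.01 TPM in control mice, 0, 14.1 and 4.59 in ethanol mice, 0, 11.2 and 0 in stress mice, and 4.85, 0 and under 0.01 in ethanol + stress mice. Aif1-203 was at 0.92, 4.54 and 10.3 TPM in control mice, 8.26, under 0.01 and 4.21 in ethanol mice, 10.6, under 0.01 and 10.9 in stress mice, and 7.35, 11.9 and 13.3 in ethanol + stress mice. Aif1-203 was near 0 in ethanol replicate 2 and stress replicate 2, where Aif1-201 was highest, and Aif1-201 was at or near 0 in the 6 mice with most Aif1-203. The sum of the pair ranged from 6.45 to 14.1 TPM. They share 84.2% of the bases of Aif1-203. The means of this sum were 8.39 ± 1.92, 10.4 ± 3.21, 10.9 ± 0.333 and 12.5 ± 0.715 TPM (SD, n = 3) in control, ethanol, stress and ethanol + stress mice. The retained intron form Aif1-205 made up 29.2% of the gene's mean and ranged from 0 to 8.65 TPM. It was highest in ethanol replicate 2 and control replicate 1 and at 0 in ethanol + stress replicate 1. The other isoforms were Aif1-202, Aif1-204, Aif1-207 and Cx3cr1-203, each under 0.5 TPM on average, and Aif1-206 and Trem2-204, which are listed at 0 in all libraries.

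**Figure D3:**
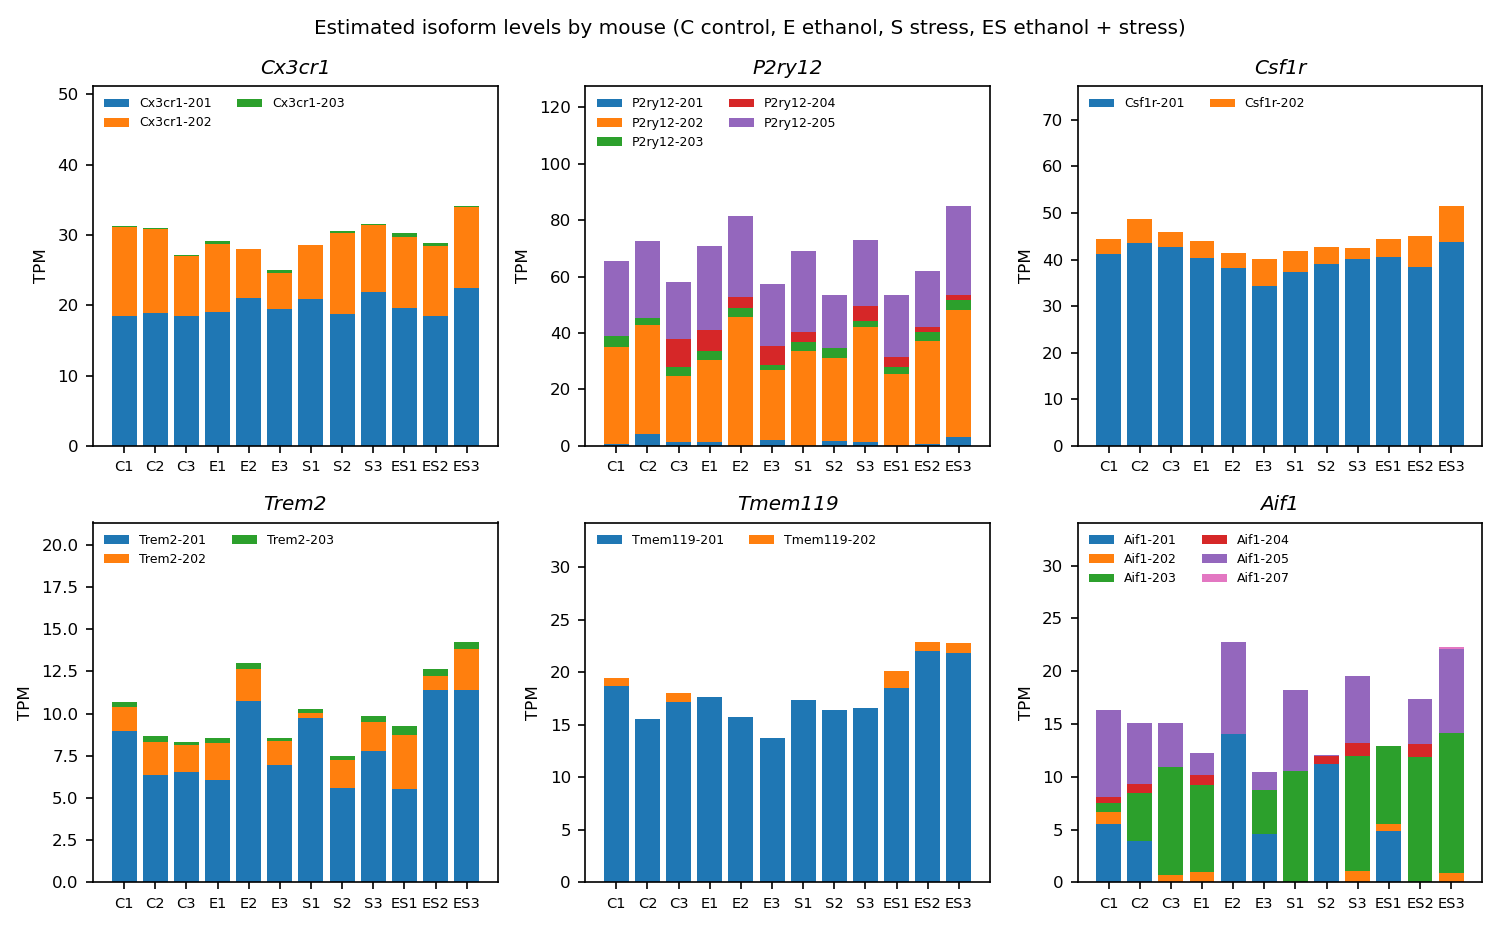
Estimated TPM of each isoform, stacked, in each of the 12 mice for Cx3cr1, P2ry12, Csf1r, Trem2, Tmem119 and Aif1 (linear axis from 0). Aif1-201 and Aif1-203 are high in different mice, while Csf1r and Cx3cr1 keep a steady main isoform.

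Within a library the ratio of C1q genes does not depend on scaling. C1qa stood at 1.37, 1.34 and 1.34 times C1qb in control mice, 1.23, 1.07 and 1.07 times in ethanol mice, 1.27, 1.35 and 1.31 times in stress mice, and 1.24, 1.29 and 1.29 times in ethanol + stress mice. The ratio was lower in every ethanol mouse (1.12 ± 0.0922) and every ethanol + stress mouse (1.27 ± 0.0258) than in any control mouse (1.35 ± 0.0193, SD, n = 3 each), a difference noticed after its values were seen and not tested. An exact permutation test of 3 against 3 mice could not go below 0.1. C1qc over C1qb ranged from 0.711 to 1.03 and C1qa over C1qc from 1.20 to 1.56, with groups that overlapped in both. How often the ratio of 2 genes lies wholly below control, over all pairs of genes, was not counted.

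Over the 12 mice, C1qa and C1qc (Pearson's r = 0.91, Spearman's rho = 0.93), C1qa and C1qb (0.90 and 0.92) and C1qb and Trem2 (0.88 and 0.69) were the pairs with the highest Pearson's r. By Spearman's rho C1qb and Trem2 stood lower, below C1qb and C1qc (0.85), C1qc and Trem2 (0.83) and Aif1 and Trem2 (0.83). All 36 pairs had r above 0, from 0.10 (P2ry12 and Tmem119) to 0.91, with a median of 0.55. These values share the scaling of each library. After rescaling to the same sum 24 of 36 pairs were above 0, the median was 0.16, and r was 0.77 for C1qa and C1qc and 0.72 for C1qa and C1qb. Cx3cr1 and Csf1r then had the highest r, at 0.82, and Csf1r and C1qb the lowest, at -0.57.

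The level of a gene followed the sum of its library to different degrees. For C1qb r with that sum was 0.94, for Trem2 0.90, for C1qa 0.85, for Aif1 0.82, for C1qc 0.78 and for P2ry12 0.72, and these genes have mean transcript lengths of 719 to 1566 bases. It was 0.48 for Tmem119 (2198 bases), 0.25 for Cx3cr1 (3566 bases) and 0.24 for Csf1r (3953 bases). When the trend with transcript length was taken out of every library, C1qb in ethanol + stress mice was at 0.34 and called (adjusted p = 0.772 in limma, 0.235 to 1 over all alternatives).

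**Figure D4:**
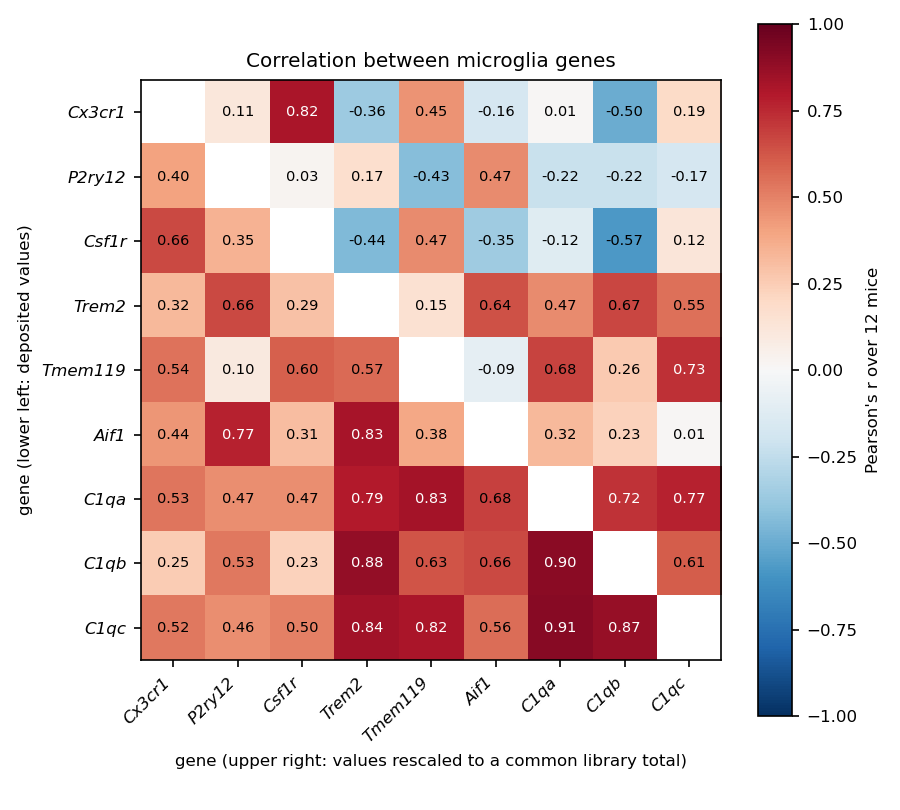
Pearson's r between microglia genes over the 12 mice, below the diagonal for deposited values and above it for values rescaled to the same library sum. The C1q genes keep r of 0.61 to 0.77 with each other after rescaling, while Csf1r and C1qb turn from 0.23 to -0.57.

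Among genes with a mean of 1 TPM or more, those whose level was like the mean standardized level of the 9 members over the 12 mice included Mmd2, Klhl5, Peli2, Gldc (the glycine decarboxylase of astrocytes), Ctbs, Fcgrt (the neonatal Fc receptor) and Dph3, with Pearson's r between 0.92 and 0.94 and between 0.59 and 0.83 after rescaling. None of these was tested against the members.

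The ligands of the receptors did not pass the threshold in any comparison (0 of 5 in each). Cx3cl1, the fractalkine gene, was at 220.0, 198.0 and 201.0 TPM in control mice, 199.4, 130.2 and 258.8 in ethanol mice, 186.9, 218.5 and 193.8 in stress mice, and 251.8, 136.2 and 142.7 in ethanol + stress mice. It was lowest in ethanol replicate 2 and ethanol + stress replicates 2 and 3, where Trem2, C1qa and C1qb stood above every control mouse (ethanol + stress against control -0.28, SE 0.25, adjusted p = 0.794 in limma). Csf1 and Il34, the ligands of CSF1R, differed by -0.09 (SE 0.181) and 0.13 (SE 0.128) in ethanol + stress mice. Apoe and Clu, bound by TREM2, differed by 0.13 each.

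Of 10 genes of TREM2 and CSF1R signalling, 0 passed in any comparison. Tyrobp, the adaptor through which TREM2 signals, was at 80.3, 73.9 and 60.0 TPM in control mice, 83.1, 124.6 and 63.7 in ethanol mice, 95.4, 70.3 and 73.1 in stress mice, and 64.1, 117.0 and 108.2 in ethanol + stress mice. Its high mice were those of Trem2, and it differed by 0.39 (SE 0.26, adjusted p = 0.791 in limma) in ethanol + stress mice. Spi1, which encodes PU.1, differed by 0.87 (SE 0.436, adjusted p = 0.791), at 2.6, 2.3 and 1.8 TPM in the controls and 1.7, 6.0 and 8.3 TPM in ethanol + stress mice, and was the value furthest from 0 in the list.

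The complement genes beyond C1q, 14 in number, had 0 calls in each comparison and medians of -0.12, 0.04 and 0.14 in ethanol, stress and ethanol + stress mice. C3, the central component that C1q activity leads to, was at 0.66, 1.01 and 0.55 TPM in the controls and 1.22, 1.82 and 1.37 TPM in ethanol + stress mice (0.67, adjusted p = 0.791 in limma). C4b, whose product is cut by the C1 proteases, differed by -0.06 (SE 0.172). Both were named after their values were seen.

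Other genes of resting microglia (18, among them Ctss, Gpr34 and Siglech) also had 0 calls in each comparison. Their medians of 0.03, 0.03 and 0.15 in ethanol, stress and ethanol + stress mice compare with -0.02, -0.01 and 0.30 for the 9 members. Of the genes linked to activated microglia, 20 of 21 were tested, with medians of 0.03, 0.12 and 0.22 in ethanol, stress and ethanol + stress mice. In ethanol mice 1 of the 20 was called, beside 0.678% of all genes. This was Clec7a, which encodes the receptor dectin-1 and rose by 0.97 (SE 0.304, from 0.64, 0.45 and 0.49 TPM in the controls to 1.66, 2.50 and 0.74 in ethanol mice). In ethanol + stress mice 2 were higher, 1 was lower and 17 were not called, beside 0.971% of all genes called. The MHC class II gene H2-Ab1 rose by 0.79 (from 1.67, 2.11 and 0.98 TPM in the controls to 3.23, 2.99 and 2.86 in ethanol + stress mice). Il1b, the gene of interleukin-1β, rose by 0.62, from under 0.32 to at most 0.76 TPM. Lpl, the gene of lipoprotein lipase, fell by 0.44 (from 15.4 to 16.7 TPM in the controls to 9.94 to 14.0 in ethanol + stress mice). None was called in stress mice or the interaction. The remaining MHC class II genes H2-Aa and H2-Eb1 differed by -0.04 and 0.17, and all these limma calls had adjusted p values of 0.791 or more.

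Markers of other cells differed between mice as well, and their part in the values above was not tested. Markers of perivascular macrophages, which share Csf1r, Aif1 and C1q with microglia, summed to 8.0 to 15.7 TPM in control, 10.2 to 13 in ethanol, 10.9 to 13.2 in stress and 13.7 to 14.9 in ethanol + stress mice, with 0 of 7 called. Mrc1 and Cd163 were present in every library. Markers of blood monocytes and neutrophils summed to 1.2 to 9.6, 4.8 to 7.5, 3.4 to 11.5 and 6.6 to 33.0 TPM in the same order. Of these markers 3 of 8 were called in ethanol + stress mice, beside 0.971% of all genes. The 3 were Ngp (0 in every control mouse), Ccr2, and S100a8, which was at 2.51, 0.46 and 1.3 TPM in the controls and 2.76, 16 and 8.37 TPM in ethanol + stress mice. Camp was at 0 in 6 and Ngp in 4 of the 12 libraries.

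By unadjusted p, erythroid genes were called in all 5 of 5 cases in ethanol mice, where 0.678% of all genes were. The same held in ethanol + stress mice, where 0.971% of all genes were called. The median differences of the erythroid genes were 1.24 and 1.08. Over all genes, 1 in each of these 2 comparisons had an adjusted p under 0.05 in limma. Erythroid genes summed to 1603 to 2022 TPM in control, 3146 to 6815 in ethanol, 2593 to 3392 in stress and 2454 to 6480 TPM in ethanol + stress mice. These sums were highest in ethanol replicate 2 and ethanol + stress replicate 2. Astrocyte, oligodendrocyte, endothelial, neuron, choroid plexus and hippocampal subfield markers had 0 calls. Hippocampal subfield markers summed to 413.7 to 488.5 TPM and were present in every library. Choroid plexus markers were the most uneven, from 41.2 to 7253 TPM, without following the groups. Neuron markers were lowest and astrocyte and oligodendrocyte markers highest in ethanol + stress replicates 2 and 3 (2578 and 2512 TPM for neurons, against 2808 to 3359 TPM elsewhere).

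**Figure D5:**
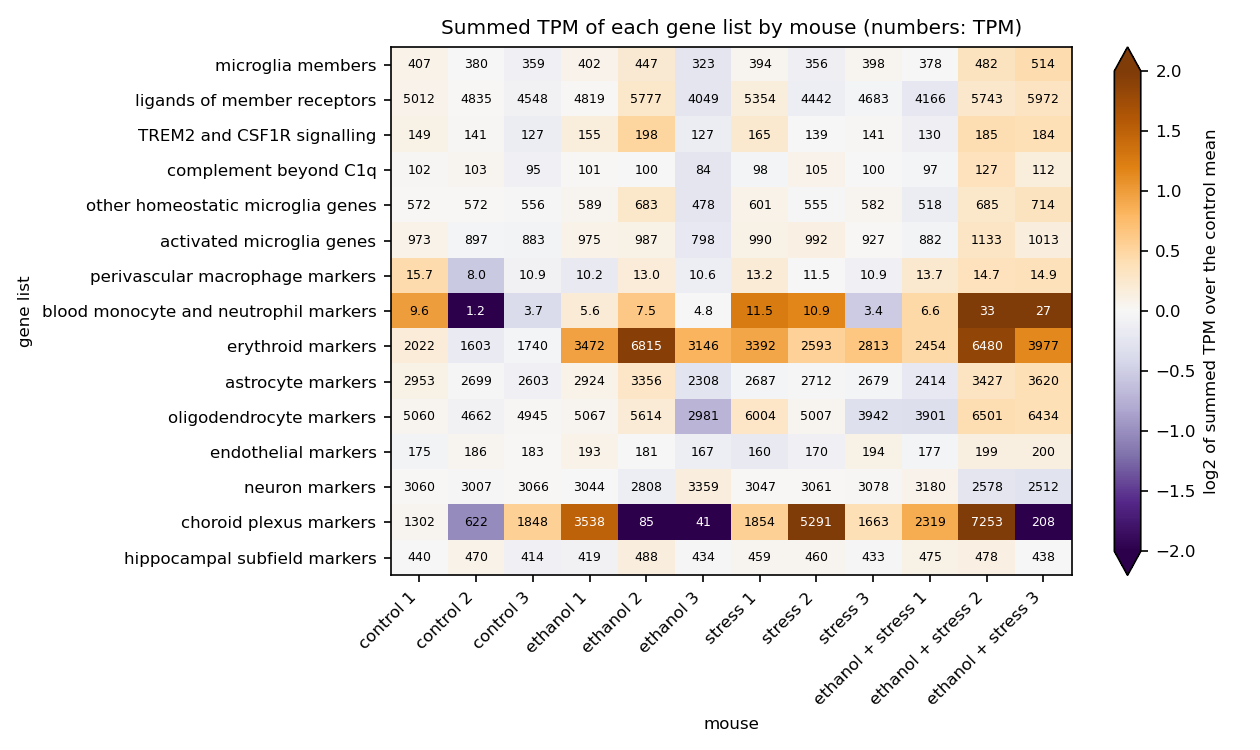
Summed TPM of each gene list in each mouse (numbers), coloured by its log2 ratio to the mean of the 3 control mice. The microglia members run from 323 TPM in ethanol replicate 3 to 514 TPM in ethanol + stress replicate 3, and the erythroid and blood leukocyte lists reach further from control than any list of microglia genes.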

How the data were processed

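RNA-Seq values of hippocampus from 12 mice, 3 per group, were analysed. The values deposited by the authors are a signal, TPM per transcript that they obtained by pseudo-alignment of paired-end reads to Ensembl mouse transcripts of GRCm38 (mm10 per the submitters' processing notes) with kallisto. Their sums differ between libraries, from which a scaling between libraries by the authors was inferred. Libraries were stranded and depleted of rRNA. The tool versions are not given in the sources used here. kallisto divides read pairs that fit several isoforms by an estimate, which limits isoform values most. GENCODE vM21 annotates 113580 of the 115270 transcripts by their identifiers, and the rest held 0.518% to 0.58% of a library.

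TPM were summed per gene. A feature was kept if at least 6 libraries reached 0.1 TPM. Tests were run in R 4.3.3 with limma 3.58.1 (lmFit, and eBayes with trend) on log2(TPM + 0.5), in one model of the 4 groups without a replicate block, with the interaction as a contrast. Tests were two-sided, an unadjusted p under 0.01 was called, following the study's own threshold, and the Benjamini-Hochberg adjustment ran over every feature tested. A fold on this scale understates the change of low genes. Simulated data served to test the model. Tables and plots were made with numpy 2.4.6, scipy 1.17.1, matplotlib 3.10.9 and pandas 2.3.3 under Python 3.11.15. Read pairs were recovered from the steps between low values, of which 76.9% to 80.9% came out whole within 0.1, and were used for precision only. A level of 3 read pairs or fewer is within counting error of 0, and this limit covers counting error alone.

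The members and gene lists were chosen with earlier results of these data known. Named were all 9 members, isoforms with a mean of 1 TPM or more or a call, Cx3cl1, Csf1, Il34 and Tyrobp, up to 5 called genes per list by p, and the 8 genes most like the members, of which 1 is not reported here. Any other gene was named after its values were seen. Replicate numbers were not treated as pairs in the main model, and the labels do not say whether mice of the same number share a dam. Alternatives were pseudocounts of 0.1 and 1, a minimum of 1 TPM, no filter, rescaling to a common sum, median-of-ratios size factors, eBayes without trend, only the groups compared, a replicate block, protein-coding isoforms, the highest isoform, removal of the trend over transcript length, and leaving out each mouse in turn.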

Additional observations from a re-analysis of the deposited data

Results flagged for a closer look

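For Tmem119 the test of whether stress and unstressed mice differ equally with and without ethanol gave an unadjusted p under 0.01, which did not survive adjustment over all genes. The interaction was 0.54 on the log2 scale (SE 0.165, interval 0.18 to 0.90, adjusted p = 1 in limma), and rested on levels of 20.1 to 22.8 TPM in ethanol + stress mice against 13.8 to 17.6 TPM in ethanol, 16.4 to 17.3 TPM in stress and 15.6 to 19.5 TPM in control mice. The direction was the same under all 23 alternatives (0.42 to 0.63, adjusted p 0.912 to 1) and the call was kept in 11 of them. No other member was called in the interaction.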

How the results depend on the processing

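With 3 mice per group, differences within about 0.18 (Csf1r) to 0.60 (Aif1) of 0 on the log2 scale could not be told from none. In ethanol + stress against control the count of called members went from 0 to 1 (C1qb) both with libraries rescaled to a common sum and with the length trend removed, and ranged from 0 to 3 when each mouse was left out in turn. In the interaction it went from 1 (Tmem119) to 0 with rescaled libraries, with the highest isoform alone and with a replicate block (0.54 as before), and ranged from 0 to 1 when mice were left out. The share of all genes called with a mouse left out is not given here, also for the 3 members called without ethanol + stress replicate 1. Among isoforms, rescaling gave 1 call in ethanol + stress mice (C1qb-201) and no filter gave 1 in the interaction (Tmem119-202, which is under 3 read pairs in every library), where the main count was 0, and leaving out mice gave 0 to 1 in ethanol mice (Cx3cr1-202 without ethanol replicate 1 and P2ry12-204 without control replicate 3) and 0 to 3 in ethanol + stress mice (C1qa-201, C1qb-201 and C1qc-201 without ethanol + stress replicate 1). Of 693 member values under alternatives, 50 changed sign, all of them uncalled and 39 of them under 0.1 in size in the main model. The cause of these changes was not tested. Rescaling also moved the calls over all genes in ethanol + stress mice from 128 higher and 51 lower to 54 higher and 64 lower. Mice with the same replicate number did not deviate together, with correlations of -0.173 to 0.164 over 18 pairs (1 over 0.1, and -0.333 to 0.336 over the other 36 pairs), and 4 of 12 mice correlated best with their own number. The replicate block changed no other call of a member gene.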
